A study of Mus musculus with 19 samples.

Results

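The genes described here are 26 genes, of 35825 in the count table, that make cholesterol or set how much of it a cell makes. They are enzymes from acetyl-CoA to cholesterol, the sterol carrier Stard4, and 5 genes of the SREBP switch (Srebf1, Srebf2, Scap, Insig1 and Insig2). They were listed by symbol, and the list was chosen by measured values, namely the difference in expression between 14-day and 6- to 7-day FGFR1 tumors. That difference is therefore described with no test. The comparisons by genotype use the same FGFR1 tumors, so counts over the list are not independent evidence of its direction.

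The samples were 19 neuroblastomas of 16 transgenic mice, measured by RNA-Seq of tumor tissue. All mice carried 1 copy each of an FGFR1-N546K transgene in the ROSA26 locus (R26.FSF.FGFR1-N546K tg/wt) and of Th-IRES Cre (tg/wt), in which the tyrosine hydroxylase gene drives the Cre recombinase. By the study's main text, the transgene is read from the CAG promoter once Cre has removed a stop cassette. It is then active in cells that have expressed Th, chiefly of the sympathetic nervous system. A supplementary legend of the study instead gives this cassette FRT sites, which are targets of the Flp recombinase. The youngest FGFR1 tumors came from 4 mice of 6 days (T11, T12) and 7 days (T2, T3), and 4 others came from mice of 14 days (T4, T15, T19, T21). A further 11 tumors, called FGFR1;MYCN, came from 8 mice that also carried Th-MYCN (tg/wt), which drives MYCN from the Th promoter. These mice were 18 to 21 days old by the study's sample table, and 3 of them (23, 36 and 84) gave an adrenal and a pelvic tumor each. No FGFR1 tumor was as old as an FGFR1;MYCN tumor, so genotype and age cannot be told apart. All 10 sympathetic marker genes, such as Th and Dbh, had counts in every tumor, and their summed level was 1330 to 5180 CPM (counts scaled by the library size of the tumor). Transcripts of the human transgenes were not analysed here.

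Cells build cholesterol from acetyl-CoA through mevalonate, isoprenoid diphosphates, squalene and lanosterol. When sterols in the endoplasmic reticulum run low, Scap carries the SREBP precursors to the Golgi, where they are cut into transcription factors that switch on the enzymes of the pathway, and Insig proteins hold Scap back when sterols are plentiful. SREBP-2, from Srebf2, acts mainly on cholesterol genes, and SREBP-1, from Srebf1, mainly on fatty acid genes. Growing cells need the pathway for membranes, and liver and the steroid-making adrenal cortex use it heavily.

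SREBPs bind sterol regulatory elements, often near a CCAAT box, the site of the factor NF-Y. In the RefSeq promoter table (GRCm38.p6; 250 bases before and 50 bases after each start), 22 of the 26 genes had an entry. The stretches below are the 250 bases before the start of 5 of them: Hmgcs1, the single gene with the element TCACNCCAC; Mvd, Idi1 and Lss, whose levels in FGFR1;MYCN tumors did not overlap those in FGFR1 tumors; and Insig1, which holds an E-box. Acat2 levels did not overlap between genotypes either, and Acat2 had an entry, but its stretch is not shown. The Acat2 window held no match to TCACNCCAC, CCAAT or CACGTG. The stretches shown are therefore examples and do not represent the list or its genes without overlap. Capitals mark TCACNCCAC, CCAAT and the E-box CACGTG on either strand.
Hmgcs1 (chr13:119690101-119690350, plus strand): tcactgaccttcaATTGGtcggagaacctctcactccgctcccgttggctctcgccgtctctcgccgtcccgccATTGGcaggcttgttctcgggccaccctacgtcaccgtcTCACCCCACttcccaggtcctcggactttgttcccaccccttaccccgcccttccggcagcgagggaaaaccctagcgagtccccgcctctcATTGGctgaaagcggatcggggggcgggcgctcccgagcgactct
Mvd (chr8:122443423-122443672, minus strand): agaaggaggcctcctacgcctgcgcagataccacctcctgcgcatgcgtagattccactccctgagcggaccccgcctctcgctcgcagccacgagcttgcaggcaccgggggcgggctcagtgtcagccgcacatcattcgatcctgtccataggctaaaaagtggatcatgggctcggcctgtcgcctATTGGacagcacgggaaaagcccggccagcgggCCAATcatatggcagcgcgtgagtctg
Idi1 (chr13:8885356-8885605, plus strand): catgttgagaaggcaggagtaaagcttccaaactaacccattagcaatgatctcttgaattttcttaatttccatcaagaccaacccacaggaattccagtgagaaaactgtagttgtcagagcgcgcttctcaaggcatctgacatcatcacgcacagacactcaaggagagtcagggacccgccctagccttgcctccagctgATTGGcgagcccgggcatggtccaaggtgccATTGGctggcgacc
Lss (chr10:76531355-76531604, plus strand): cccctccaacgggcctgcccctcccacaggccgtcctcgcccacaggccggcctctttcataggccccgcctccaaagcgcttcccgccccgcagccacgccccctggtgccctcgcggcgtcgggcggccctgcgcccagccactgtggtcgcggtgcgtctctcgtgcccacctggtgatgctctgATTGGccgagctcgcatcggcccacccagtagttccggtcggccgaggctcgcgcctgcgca
Insig1 (chr5:28071162-28071411, plus strand): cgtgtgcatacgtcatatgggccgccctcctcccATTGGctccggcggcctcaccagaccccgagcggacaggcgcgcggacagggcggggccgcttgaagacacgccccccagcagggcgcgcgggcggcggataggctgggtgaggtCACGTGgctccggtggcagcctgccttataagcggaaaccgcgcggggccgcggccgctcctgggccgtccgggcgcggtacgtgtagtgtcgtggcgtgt

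The Hmgcs1 stretch holds 3 CCAAT boxes, those of Mvd and Idi1 hold 2 each, and those of Lss and Insig1 hold 1 each. Over the whole window, a CCAAT box was in a promoter of 20 of the 22 genes (90.9%), all but Acat2 and Scap, against 41.1% of the 27025 genes in the table. Of single promoters, 70% of the members' 30 and 37.4% of all 32851 held one. The letters TCACNCCAC were in 1 of the 22 genes (4.55%), against 1.44% of all genes. The E-box CACGTG was in 5 of 22 (22.7%; Hsd17b7, Sc5d, Dhcr7, Insig1 and Scap), against 8.09%. A match describes letters and is not a bound site, and a window without them says nothing of the factor.

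Total counts per tumor were 40010738 to 75882643, and each of the 26 genes passed every filter on low counts. Some tumors had high levels of liver or adrenal cortex genes. The summed level of 8 liver genes was above 20000 CPM in T2 (97340 CPM), T15 (36500 CPM), T11 (25870 CPM) and the FGFR1;MYCN tumor of mouse2149 (152100 CPM), and that of 10 adrenal cortex genes was above 5000 CPM in T4 (12150 CPM) and T19 (7607 CPM). The 26 genes were also fitted without these tumors, and the pathway and cell type lists without mouse2149. In bulk tissue, fewer cells of a type and less RNA per cell cannot be told apart.

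**Figure D1:**
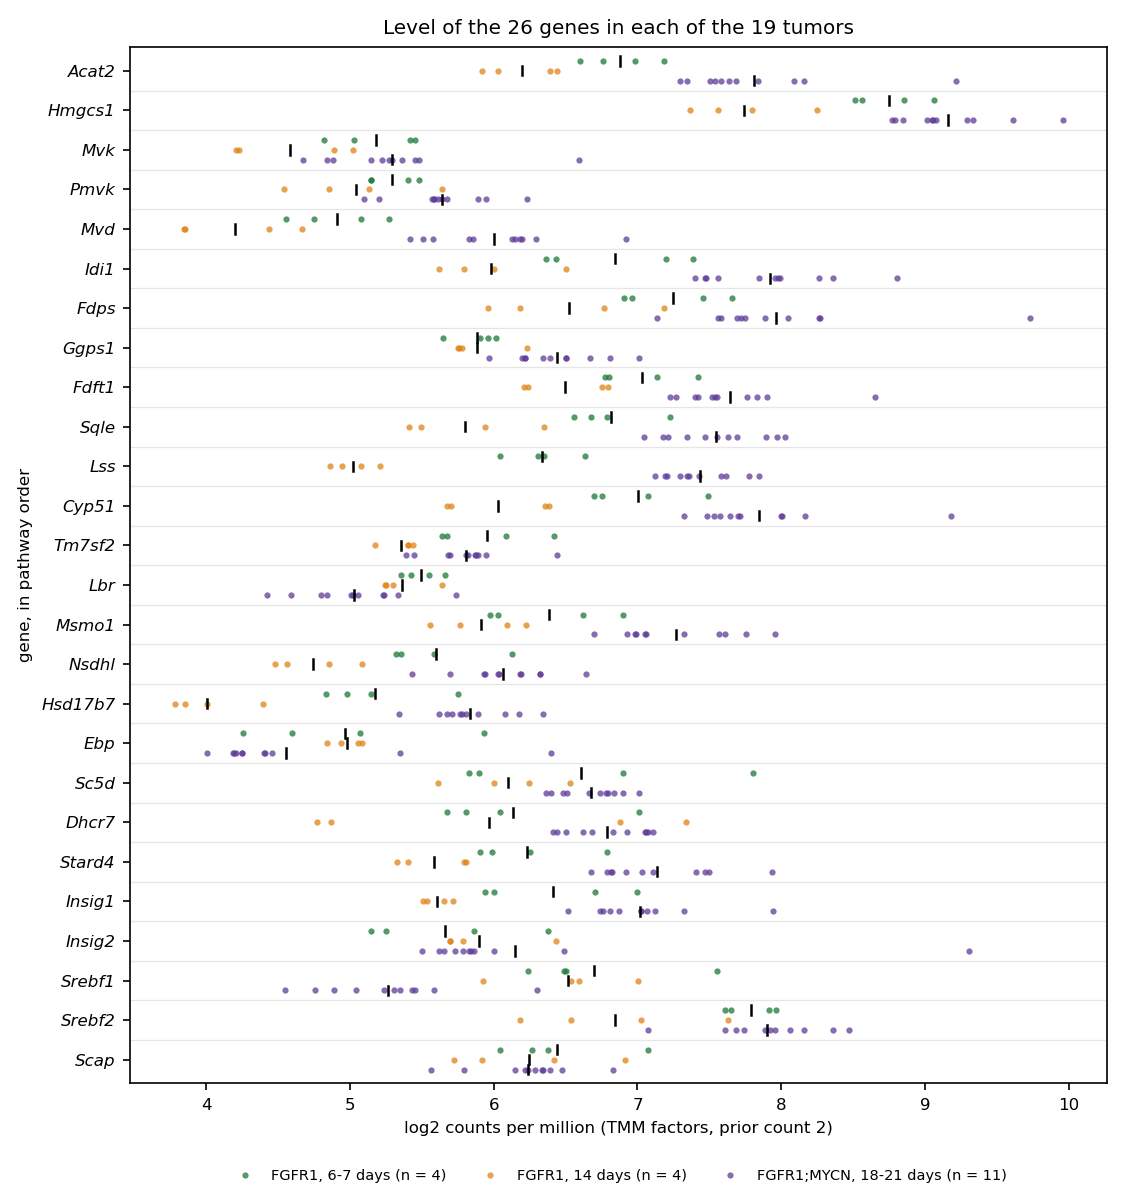
Level of each of the 26 genes in each tumor, in log2 CPM on the horizontal axis, with genes in pathway order; a dot is a tumor, colours are the 3 groups and ticks are group means. For Lss the 14-day tumors (29.0 to 37.0 CPM) lie left of the 6- to 7-day tumors (65.8 to 99.3 CPM) and the FGFR1;MYCN tumors (139 to 230 CPM) lie right of both, while for Srebf1 most FGFR1;MYCN tumors lie on the left.

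Most of the genes were lower in FGFR1 tumors at 14 days than at 6 to 7 days, the pattern the list was drawn up on. Lss, lanosterol synthase, which closes squalene epoxide into the first sterol, had 81.7, 79.2, 99.3 and 65.8 CPM in the 6- to 7-day tumors T11, T12, T2 and T3. In the 14-day tumors T15, T19, T21 and T4 it had 30.7, 33.7, 29.0 and 37.0 CPM. The ages did not overlap, and the fitted log2 fold change was -1.24 ± 0.16 (SE; 4 against 4 tumors). Lss lies on chromosome 10 (76531588 to 76557138, GRCm38, plus strand), and 381 of its exon bases are shared with an antisense gene.

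In the same order of tumors, Hmgcs1, HMG-CoA synthase, had 464, 378, 536 and 366 CPM at 6 to 7 days and 188, 223, 165 and 305 CPM at 14 days. Sqle, squalene epoxidase, had 111, 102, 150 and 94.4 CPM and 42.6, 44.9, 61.3 and 81.4 CPM. Hsd17b7, a reductase in the removal of methyl groups from lanosterol, had 35.3, 31.4, 53.7 and 28.5 CPM and 14.4, 16.0, 13.7 and 21.02 CPM. None of these 3 genes overlapped between ages, and T2 was the highest tumor for each. Their log2 fold changes were -0.90 ± 0.25, -0.90 ± 0.25 and -1.11 ± 0.24 (SE).

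Counted over the list, 23 of the 26 fold changes were below 0, with a median of -0.59 on the log2 scale, against 0.05 over all 18623 genes. In 10 genes all 14-day tumors were below all 6- to 7-day tumors: Acat2, Hmgcs1, Sqle, Lss, Cyp51, Tm7sf2, Nsdhl, Hsd17b7, Stard4 and Insig1. That held in 7.1% of all genes. The opposite held in 0 of the 26 and in 4.23% of all genes. Since the list was drawn up on this contrast, nothing is read from these shares. Over all genes, edgeR called 0 of 18623 (0%), while 3116 had an unadjusted p under 0.05 and DESeq2 called 1363.

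The young tumor T2 was the highest of the 8 FGFR1 tumors for 22 of the 26 genes, against 18.1% of all genes. T2 and T11 were also the 6- to 7-day tumors with most liver RNA, and T15 was that at 14 days. Without these 3 tumors the median fold change was -0.21, with 17 of 26 below 0. Lss had -1.10 ± 0.22 there, Hsd17b7 -0.80 ± 0.26, Hmgcs1 -0.67 ± 0.32 and Sqle -0.63 ± 0.29. Sc5d, a late desaturase of the pathway, went from -0.62 ± 0.44 to 0.14 ± 0.24, Msmo1, a methyl oxidase, from -0.41 ± 0.25 to 0.08 ± 0.25, and Insig1 from -0.79 ± 0.24 to -0.31 ± 0.20. In that setting, with 3 tumors at 14 days and 2 at 6 to 7 days, 11 genes had all 14-day below all 6- to 7-day tumors and 2 the reverse, against 21% and 17.3% of all genes. The tumors left in that setting still differed in liver RNA. The summed liver list was 14500, 988.6 and 6093 CPM in T19, T21 and T4 at 14 days. It was 18.34 and 474 CPM in T12 and T3 at 6 to 7 days. The part of liver RNA was not tested.

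**Figure D2:**
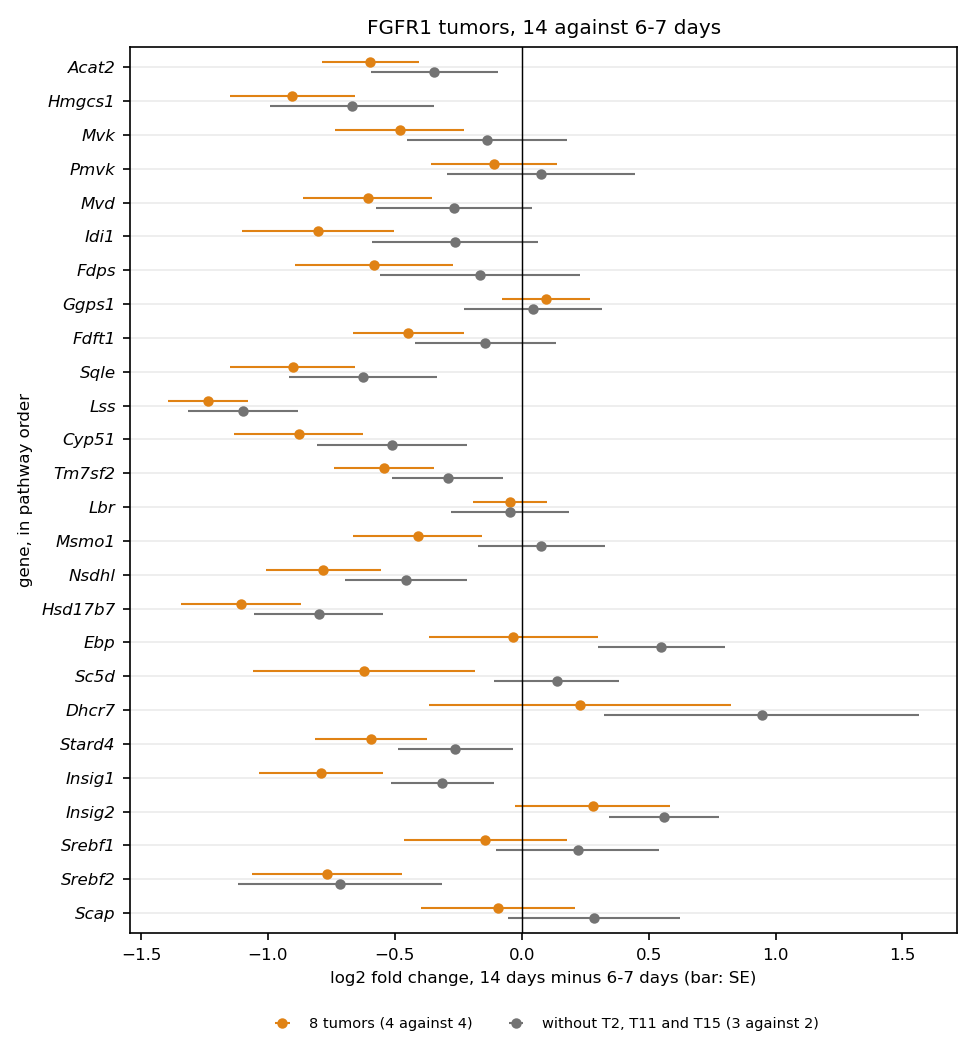
Log2 fold change of each gene between 14-day and 6- to 7-day FGFR1 tumors, as points with SE bars, in all 8 tumors and without T2, T11 and T15. Of the 26 points, 23 lie left of 0 with all tumors and 17 without those 3, and Lss lies left of 0 in both.

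The 14-day tumors also differed among themselves. Dhcr7, the last reductase of the pathway, had 118 and 162 CPM in T19 and T4 but 27.3 and 29.2 CPM in T15 and T21. The 6- to 7-day tumors had 65.8, 56.0, 129 and 51.0 CPM, within that range, and the fitted change was 0.23 ± 0.59. Srebf2 had 130 and 198 CPM in T19 and T4 and 92.7 and 72.6 CPM in T15 and T21. Scap split the same way, with 85.5 and 120 CPM against 60.4 and 52.9 CPM. T4 and T19 were the tumors with most adrenal cortex RNA. Without them the fold change between ages was -1.30 ± 0.42 for Dhcr7 and -1.32 ± 0.21 for Srebf2, and 15 genes had all 14-day below all 6- to 7-day tumors, against 20.9% of all genes. The summed adrenal cortex list was 17.6 to 12200 CPM at 14 days and 85.4 to 1970 CPM at 6 to 7 days. Of its genes 6 of 10 had no count in some tumor, and Nr5a1, the factor that defines this tissue, had none in 3 FGFR1;MYCN tumors. The part of adrenal cortex in these values was not tested.

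Proliferation genes were on the same side as most of the sterol genes. All 8 had a fitted value below 0 at 14 days, and their summed level was 174 to 327 CPM there and 513 to 717 CPM at 6 to 7 days. Mki67, a marker of dividing cells, had -1.28 ± 0.27. None of the 8 passed by edgeR, which called 0 genes between the ages (3116 at an unadjusted p under 0.05). Most lists of cell type markers also lay on 1 side, with none of their genes past the threshold by edgeR. All 8 adipocyte genes had fitted values above 0 at 14 days (median 1.86), and their summed level was 1660 to 3350 CPM there and 262 to 1580 CPM at 6 to 7 days. All 10 Schwann cell, 10 adrenal cortex and 7 endothelial genes were also above 0, with medians of 0.72, 2.75 and 0.60. All 8 liver and 8 macrophage genes were below 0 (medians -1.25 and -0.40), as were 9 of 10 sympathetic genes (median -0.27), and 4 of 8 fibroblast genes lay on each side. The part of cell division or of cell mixture in the sterol genes was not tested.

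FGFR1;MYCN tumors had more RNA of most enzymes than FGFR1 tumors. Of the 26 genes, 16 were higher and 2 lower (edgeR, adjusted p under 0.05 over 18321 genes), and 8 did not pass. Of all genes, 19.5% were higher and 24.5% lower. The median log2 fold change of the list was 0.87, against 0.01 over all genes tested. In 4 genes (Acat2, Mvd, Idi1 and Lss) every FGFR1;MYCN tumor was above every FGFR1 tumor, as in 3.66% of all genes. The reverse held in 0 of the 26 and in 7.06% of all genes. Without the 4 tumors with most liver RNA 19 genes were higher, and without T4 and T19 16 were. All genes were not counted in these reduced fits, so nothing about the list is read from these counts.

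Lss had the widest difference. In the 11 FGFR1;MYCN tumors it ran from 139 to 230 CPM with a median of 164 CPM, and the highest FGFR1 tumor, T2, had 99.3 CPM. The means were 175 ± 30.3 CPM (SD, n = 11) and 57.1 ± 27.7 CPM (SD, n = 8). The log2 fold change was 1.62 ± 0.23 (SE; adjusted p = 1.5e-05, edgeR).

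At the top of the pathway, Acat2, the thiolase that joins acetyl-CoA units, ran from 157 to 595 CPM with a median of 199 CPM in FGFR1;MYCN tumors and from 60.4 to 145 CPM in FGFR1 tumors. The groups did not overlap, and the log2 fold change was 1.324 ± 0.25 (adjusted p = 0.00025, edgeR). Acat2 has a close relative, Acat3, and reads may be split between them. Hmgcs1 ran from 437 to 995 CPM with a median of 532 CPM, against 165 to 536 CPM. Its ranges overlapped through T2 and T11, and the fold change was 0.85 ± 0.23 (adjusted p = 0.0050, edgeR).

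Of the 6 enzymes from mevalonate to the isoprenoid diphosphates, 5 were higher. Idi1, which interconverts the isoprene units, ran from 169 to 448 CPM with a median of 248 CPM, against 49.1 to 167 CPM in FGFR1 tumors. Mvd, the decarboxylase that makes the first of these units, ran from 42.7 to 121 CPM with a median of 69.7 CPM, against 14.3 to 38.5 CPM. Neither gene overlapped between genotypes, and their log2 fold changes were 1.45 ± 0.25 and 1.43 ± 0.22 (adjusted p = 0.00010 and 2.8e-05, edgeR). Fdps, farnesyl diphosphate synthase, rose by 1.17 ± 0.31, Ggps1, geranylgeranyl diphosphate synthase, by 0.58 ± 0.13 and Pmvk, phosphomevalonate kinase, by 0.47 ± 0.15 (adjusted p = 0.0050, 0.0010 and 0.018, edgeR). Fdps shares 1124 exon bases with a predicted gene on the same strand, so its count is uncertain. Without T4 and T19, Pmvk did not pass, at 0.36 ± 0.16 (adjusted p = 0.083, edgeR). Mvk, mevalonate kinase, had 0.44 ± 0.23 (adjusted p = 0.13, edgeR) and passed without mouse2149, at 0.55 ± 0.23 (adjusted p = 0.048, edgeR).

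All 3 enzymes from squalene formation to lanosterol were higher. Besides Lss, Sqle ran from 132 to 260 CPM with a median of 187 CPM, against 42.6 to 150 CPM. Its ranges overlapped through T2, and the fold change was 1.16 ± 0.22 (adjusted p = 0.00028, edgeR). Fdft1, squalene synthase, which commits farnesyl diphosphate to sterols, rose by 0.88 ± 0.19 (adjusted p = 0.0010, edgeR).

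From lanosterol to cholesterol, 4 of 9 genes were higher and 1 lower, and the higher ones act in the removal of methyl groups. Cyp51, lanosterol demethylase, ran from 160 to 580 CPM with a median of 208 CPM, against 51.0 to 180 CPM, and rose by 1.31 ± 0.27 (adjusted p = 0.00058, edgeR). Msmo1, Nsdhl and Hsd17b7, which act in turn on the next methyl groups, rose by 1.11 ± 0.20, 0.83 ± 0.20 and 1.12 ± 0.23 (adjusted p = 0.00013, 0.0020 and 0.00058, edgeR). Of the later enzymes, Ebp, the sterol isomerase, had -0.28 ± 0.31, Sc5d 0.16 ± 0.23 and Dhcr7 0.50 ± 0.28, none past the threshold (adjusted p = 0.48, 0.60 and 0.17, edgeR).

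Values of these 3 later enzymes changed when tumors with high levels of liver or adrenal cortex genes were left out. Ebp had 84.3 CPM in mouse2149 and 16.0 to 40.8 CPM in the other FGFR1;MYCN tumors, and without that tumor it was lower in FGFR1;MYCN tumors, at -0.57 ± 0.21 (adjusted p = 0.025, edgeR). Sc5d had 224 CPM in T2, where the other FGFR1 tumors had 48.8 to 119 CPM, and it was higher by 0.77 ± 0.13 (adjusted p = 0.00012, edgeR) without the 4 tumors with most liver RNA. Dhcr7 was higher by 0.90 ± 0.27 (adjusted p = 0.012, edgeR) without T4 and T19. For each gene, the tumors left out included the highest of their genotype, which by itself moves the fit. The part of other tissue was not tested.

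Tm7sf2 and Lbr code for enzymes of the same reductase step. Tm7sf2 had 0.12 ± 0.16 (adjusted p = 0.56, edgeR), with 41.9 to 86.8 CPM in FGFR1;MYCN tumors and 36.03 to 85.3 CPM in FGFR1 tumors, and passed without the 4 tumors with most liver RNA, at 0.44 ± 0.15 (adjusted p = 0.025). It shares 532 exon bases with Vps51 on the same strand. Lbr, the lamin B receptor of the nuclear membrane, was lower, at -0.37 ± 0.14 (adjusted p = 0.039, edgeR). That call was lost in 15 of 19 fits that left out 1 tumor, with an adjusted p of up to 0.11 without T2, and by DESeq2 (adjusted p = 0.10).

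Stard4, which moves sterols between membranes, ran from 102 to 245 CPM with a median of 130 CPM in FGFR1;MYCN tumors and from 40.1 to 110 CPM in FGFR1 tumors. The ranges overlapped through T2, and it rose by 1.21 ± 0.20 (adjusted p = 7.7e-05, edgeR).

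Of the SREBP genes, Srebf1 was lower in FGFR1;MYCN tumors, opposite to most enzymes. It had 90.5, 75.5, 188 and 89.6 CPM in T11, T12, T2 and T3 and 92.9, 96.6, 60.8 and 128 CPM in T15, T19, T21 and T4. In FGFR1;MYCN tumors it ran from 23.3 to 78.7 CPM with a median of 39.6 CPM. The overlap came from mouse2149, since the other 10 FGFR1;MYCN tumors had 23.3 to 47.9 CPM. The log2 fold change was -1.35 ± 0.22 (adjusted p = 5.3e-05, edgeR), and none of the 19 fits that left out 1 tumor lost the call. Srebf1 lies on chromosome 11 (60199089 to 60222581, GRCm38, minus strand) and shares 109 exon bases with Rai1 on the other strand.

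Srebf2 ran from 135 to 354 CPM with a median of 242 CPM in FGFR1;MYCN tumors, against 196 to 250 CPM at 6 to 7 days and 72.6 to 198 CPM at 14 days. By genotype it had 0.51 ± 0.23 (adjusted p = 0.072, edgeR), and it passed by DESeq2 (0.59 ± 0.22, adjusted p = 0.018). Insig1, itself a target of SREBPs, rose by 0.96 ± 0.22 (adjusted p = 0.0014, edgeR), with 91.6 to 246 CPM against 45.4 to 127 CPM. Insig2 had 634 CPM in mouse2149 and 45.2 to 89.6 CPM in the other FGFR1;MYCN tumors, and its value was 0.94 ± 0.51 with that tumor and 0.06 ± 0.17 without it (adjusted p = 0.14 and 0.79, edgeR). Scap, at 47.2 to 114 CPM against 52.9 to 134 CPM, had -0.14 ± 0.18 (adjusted p = 0.56, edgeR).

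The FGFR1 tumors were also taken by age. Both contrasts share the 11 FGFR1;MYCN tumors and use the tumors the list was drawn up on, so their values stand side by side. Choosing the list by the age difference favours higher values against 14 days and lower ones against 6 to 7 days. Counts and adjusted p of the members in these contrasts are not free of that choice and are no independent support. Against 14 days, 19 genes were higher and 1 lower (19.6% and 23.7% of 19411 genes), with a median of 1.26. Against 6 to 7 days, 11 were higher and 1 lower (10.2% and 18% of all genes), with a median of 0.59. The lower gene was Srebf1 in both, at -1.23 ± 0.27 and -1.46 ± 0.26 (adjusted p = 0.0010 and 0.00038, edgeR). In 13 genes every FGFR1;MYCN tumor was above every 14-day tumor, against 7.6% of all genes, and in 4 genes every FGFR1;MYCN tumor was above every 6- to 7-day tumor, against 5.23% of all genes.

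Lss had 2.43 ± 0.17 against 14 days and 1.11 ± 0.15 against 6 to 7 days (adjusted p = 1.5e-08 and 2.8e-05, edgeR). Idi1 had 1.96 ± 0.29 and 1.07 ± 0.28, Mvd 1.82 ± 0.27 and 1.13 ± 0.25, and Sqle 1.73 ± 0.23 and 0.75 ± 0.21, each past the threshold in both contrasts. Hmgcs1 had 1.43 ± 0.24 (adjusted p = 0.00011, edgeR) against 14 days and 0.44 ± 0.23 (adjusted p = 0.16) against 6 to 7 days. Srebf2 had 1.00 ± 0.25 (adjusted p = 0.0036, edgeR) and 0.15 ± 0.24 (adjusted p = 0.69). The count against 6 to 7 days depended on single tumors: 7 genes were higher without T12, 6 without T3 and 16 without mouse2149. The shares of all genes in these fits were not counted, so the changes are not read as particular to the list. Mean log2 CPM was lowest at 14 days, then at 6 to 7 days, and highest in FGFR1;MYCN tumors in 19 of the 26 genes, against 28.6% of all genes, an order whose first step the choice of genes largely fixed.

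**Figure D3:**
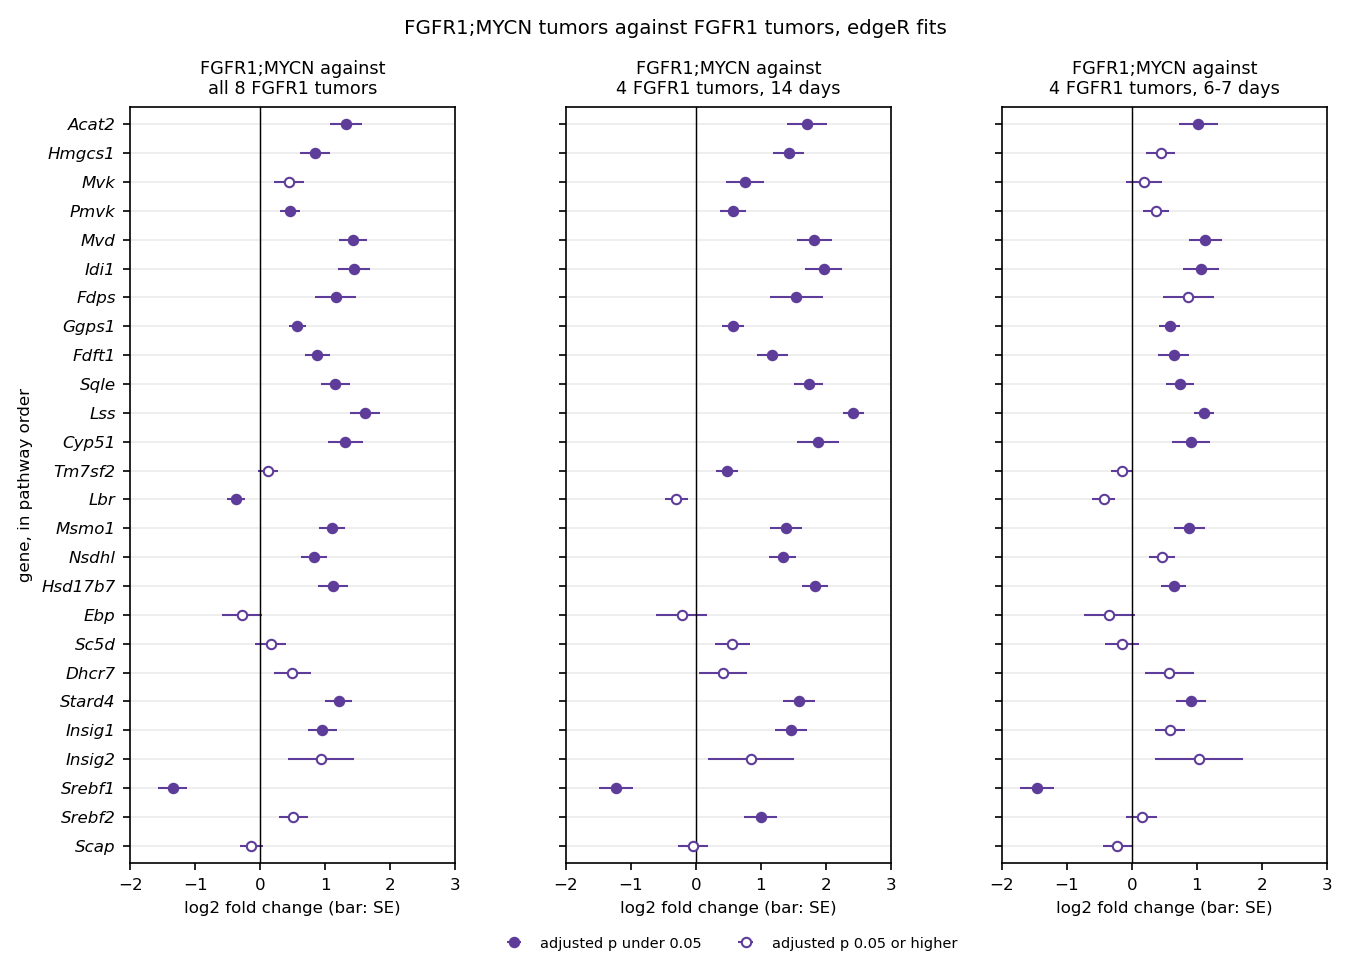
Log2 fold change of each gene, as points with SE bars, in FGFR1;MYCN tumors against all 8 FGFR1 tumors, the 4 at 14 days and the 4 at 6 to 7 days; filled points have an adjusted p under 0.05 (edgeR). Filled points right of 0 number 16, 19 and 11, and Srebf1 is a filled point left of 0 in all 3 panels.

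The genotypes also differed in genes of other cell types. With all tumors, 19.5% of all genes were higher and 24.5% lower by genotype. The shares without mouse2149 are not given here, so counts in that setting are not read as particular to a list. All 8 fibroblast, 7 endothelial, 10 Schwann cell and 8 adipocyte genes and 7 of 8 macrophage genes were lower in FGFR1;MYCN tumors (edgeR, adjusted p under 0.05). The summed fibroblast level was 822 to 2140 CPM there and 5350 to 13700 CPM in FGFR1 tumors, and that of the adipocyte genes 24.0 to 133 CPM and 262 to 3350 CPM. None of these lists had a gene at 0 in any tumor. Of 10 sympathetic genes 5 were higher, such as Th at 1.39 ± 0.19, and 1 lower. Adrenal cortex genes were lower in 5 of 10 cases, with a summed 13.0 to 2160 CPM against 17.6 to 12200 CPM. The 8 liver genes did not pass, but without mouse2149, the tumor with most liver RNA, all 8 were lower. Of the exocrine pancreas genes 4 of 4 tested were higher, with a summed 119100 CPM in mouse2149, 8.67 to 371 CPM in the other 10 FGFR1;MYCN tumors and 5.79 to 29.4 CPM in FGFR1 tumors. Without mouse2149, 2 of these 4 were higher. Of the kidney genes 2 of 3 tested were lower, and 3 of 3 without mouse2149. All 8 macrophage genes were lower and 7 sympathetic genes higher without that tumor. The part of cell mixture in the sterol genes, Srebf1 included, was not tested.

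Lists of neighbouring pathways were mixed. Of all genes, 19.5% were higher and 24.5% lower by genotype, 19.6% and 23.7% against 14 days, and 10.2% and 18% against 6 to 7 days. The shares without mouse2149 are not given here, so counts of these lists in that setting are not read as particular to them. Of 16 genes of fatty acid synthesis and desaturation, the program of SREBP-1, 6 were higher and 6 lower in FGFR1;MYCN tumors. Thrsp, a lipogenic gene of fat and liver, had -4.20 ± 0.50, Scd1, a desaturase, -1.16 ± 0.28 and Me1, malic enzyme, -1.14 ± 0.33 (adjusted p = 1.9e-06, 0.0023 and 0.0086, edgeR). Against 6- to 7-day tumors alone, Thrsp had -2.27 ± 0.32 (adjusted p = 3.8e-05, edgeR). Scd1 and Me1 did not pass there, at -0.16 ± 0.21 and -0.35 ± 0.35 (adjusted p = 0.62 and 0.51, edgeR). Lpin1, a phosphatase of lipid synthesis, had 0.88 ± 0.54 (adjusted p = 0.20, edgeR). It was at 498 CPM in mouse2149 and 28.9 to 63.6 CPM in the other 10 FGFR1;MYCN tumors, and without mouse2149 its value was 0.09 ± 0.31 (adjusted p = 0.82, edgeR). Of the 6 higher genes, Elovl6, a fatty acid elongase, rose by 1.16 ± 0.14, Acsl3, which activates fatty acids, by 1.05 ± 0.14 and Fasn, fatty acid synthase, by 0.92 ± 0.31 (adjusted p = 2.0e-06, 8.0e-06 and 0.020, edgeR). Acaca, acetyl-CoA carboxylase, rose by 0.86 ± 0.19, Aacs, which activates acetoacetate, by 0.83 ± 0.18 and Acss2, which makes acetyl-CoA from acetate, by 0.51 ± 0.10 (adjusted p = 0.0013, 0.00089 and 0.00041, edgeR). Without mouse2149, 8 genes of the list were higher and 6 lower. With all tumors, 6 were higher and 5 lower against 14 days, and 5 were higher and 2 lower against 6 to 7 days. The list's summed level was 2130 to 3620 CPM in FGFR1;MYCN tumors and 1810 to 4040 CPM in FGFR1 tumors.

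Of 9 genes of sterol efflux and the sterol sensor LXR, 7 were lower and the other 2 did not pass. Of all genes, 24.5% were lower by genotype and 18% against 6 to 7 days. Pltp, a lipid transfer protein, had -2.35 ± 0.46, Smpdl3a, an LXR target, -1.65 ± 0.27 and Mylip, which degrades lipoprotein receptors, -1.25 ± 0.40 (adjusted p = 0.00032, 5.9e-05 and 0.015, edgeR). Against 6- to 7-day tumors alone, 4 of the 9 were lower, and Mylip did not pass, at -0.70 ± 0.47 (adjusted p = 0.30, edgeR). Nr1h3, which codes for LXR-alpha, had -1.49 ± 0.66 (adjusted p = 0.075, edgeR). It was at 50.5 CPM in mouse2149 and 1.44 to 5.02 CPM in the other 10 FGFR1;MYCN tumors, and without mouse2149 it was lower, at -2.80 ± 0.34 (adjusted p = 1.3e-06, edgeR). In that setting 8 genes of the list were lower and 1 higher. Of 8 genes of sterol ester and oxysterol metabolism, 4 were lower and the other 4 did not pass. Against 6- to 7-day tumors alone, 3 of the 8 were lower. Lipe, a lipase of fat and steroid-making cells, had -2.73 ± 0.27, Cyp7b1, an oxysterol hydroxylase, -2.36 ± 0.20 and Ch25h, cholesterol 25-hydroxylase, -2.18 ± 0.34 (adjusted p = 2.0e-07, 3.4e-08 and 3.3e-05, edgeR). Cyp27a1, a sterol hydroxylase, had 0.28 ± 1.02 (adjusted p = 0.84, edgeR). It was at 211 CPM in mouse2149 and 1.15 to 5.22 CPM in the other 10 FGFR1;MYCN tumors, and without mouse2149 it was lower, at -2.80 ± 0.42 (adjusted p = 1.4e-05, edgeR). In that setting 6 of the 8 genes of the list were lower.

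Of 10 genes of sterol uptake and movement, 2 were higher and 4 lower, against 19.5% and 24.5% of all genes. Lrp8, a lipoprotein receptor of neurons, rose by 1.57 ± 0.26, while Scarb1, a lipoprotein receptor of steroid-making cells, had -1.99 ± 0.49, Lipa, the lysosomal lipase, -1.51 ± 0.36 and Stard3, a sterol carrier of endosomes, -1.24 ± 0.13 (adjusted p = 5.4e-05, 0.0027, 0.0017 and 6.6e-07, edgeR). Without mouse2149, 2 were higher and 5 lower. With all tumors, 2 were higher and 3 lower against 6 to 7 days, where Scarb1 did not pass, at -1.23 ± 0.56 (adjusted p = 0.11, edgeR).

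Of 7 genes of SREBP processing and sterol sensing, 2 were higher and 3 lower, against 19.5% and 24.5% of all genes. Mbtps2, the second protease that frees SREBPs, rose by 1.01 ± 0.13 and the ubiquitin ligase Rnf145 by 0.45 ± 0.13 (adjusted p = 3.9e-06 and 0.0098, edgeR). Mbtps1, the first protease, had -0.57 ± 0.12, and Erlin1 and Erlin2, proteins of the endoplasmic reticulum, -0.68 ± 0.16 and -0.32 ± 0.10 (adjusted p = 0.00082, 0.0017 and 0.012, edgeR). Of 13 genes that use isoprenoids, 3 were higher and 1 lower. Pdss1, which makes the tail of coenzyme Q, rose by 1.04 ± 0.16, Rabggtb, which helps attach geranylgeranyl to Rab proteins, by 0.61 ± 0.12 and Nus1, a subunit of the dolichol-making enzyme, by 0.55 ± 0.09 (adjusted p = 3.3e-05, 0.00044 and 6.2e-05, edgeR). Fnta, a subunit of farnesyltransferase, had -0.44 ± 0.19 (adjusted p = 0.066, edgeR). Of 8 proliferation genes, 1 was higher by genotype (Ccnb1, 0.95 ± 0.33, adjusted p = 0.022, edgeR). Against 14-day tumors 6 of the 8 were higher by edgeR (19.6% of all genes), with a median of 1.00. Against 6- to 7-day tumors 0 of the 8 passed (10.2% of all genes were higher and 18% lower), with a median of -0.03. The part of cell division in the sterol genes by genotype was not tested.

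Within the 11 FGFR1;MYCN tumors, most of the enzymes varied together. The Pearson r of each gene with the mean of the other 25, across tumors that share normalization and include pairs from 3 mice, had a median of 0.77, and 18 of 26 were above 0.5. Over 18295 other genes the median r with the mean of the list was -0.12, and 22.4% were above 0.5. Hmgcs1 (0.97), Fdft1 (0.97) and Acat2 (0.96) were closest to the rest. Scap (-0.42) and Srebf1 (-0.37) had negative values, Srebf2 had 0.32, and Lss, the enzyme with the widest difference by genotype, had 0.25. Without mouse2149 the median was 0.85, Ebp went from 0.20 to 0.90 and Insig2 from -0.11 to 0.63. By Spearman rank correlation over the 11 tumors the median was 0.65, with 18 of 26 above 0.5, against 12.5% of all genes. The pelvic tumor of mouse 23 was the highest for 18 of the 26 genes and weighs on the Pearson values. Values without it were not computed. All of these describe 11 tumors and carry no test.

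The pelvic tumor of mouse 23 was the highest of the 11 for 18 of the 26 genes, against 25.1% of all genes. Fdps had 849 CPM there and 140 to 309 CPM in the other 10, Acat2 595 CPM and 157 to 286 CPM, and Cyp51 580 CPM and 160 to 288 CPM. For Srebf1 and Scap this tumor was the lowest, at 23.3 and 47.2 CPM.

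**Figure D4:**
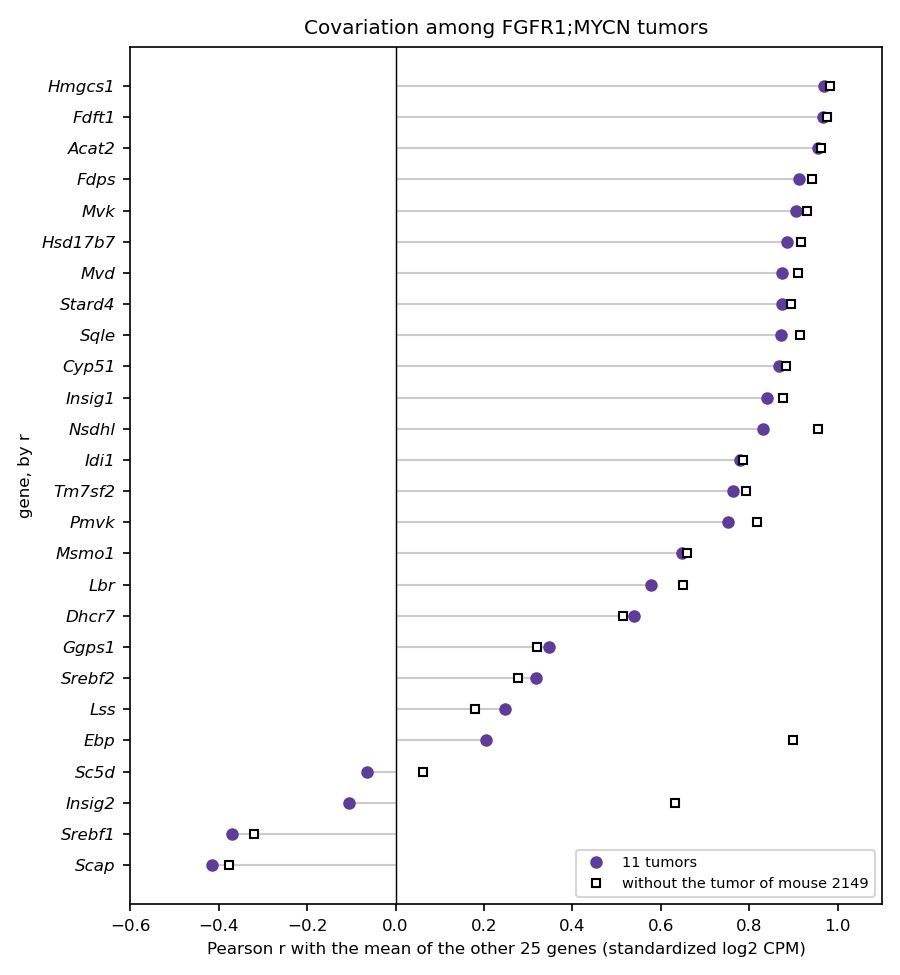
Pearson r of each gene with the mean of the other 25 genes on standardized log2 CPM, across the 11 FGFR1;MYCN tumors and across 10 without mouse2149. Of the 26 genes 18 lie above 0.5 with all 11 tumors; Ebp and Insig2 move right without mouse2149, and Scap and Srebf1 lie left of 0.

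Outside the list, the 5 genes whose levels ran closest to its mean in these tumors, among 11198 genes with a mean above 3 log2 CPM, were Sae1, Rdh11, Map2k1, Tagln2 and Stk39, with r of 0.97, 0.97, 0.96, 0.96 and 0.96 over 11 tumors. Of these, Rdh11, a retinol dehydrogenase, was higher in FGFR1;MYCN tumors by 1.06 ± 0.16, Stk39, a kinase, by 0.83 ± 0.15 and Map2k1, a kinase of the MAPK cascade, by 0.34 ± 0.11 (adjusted p = 2.1e-05, 0.00016 and 0.020, edgeR). Sae1 and Tagln2 had 0.21 ± 0.18 and 0.16 ± 0.19 (adjusted p = 0.35 and 0.52, edgeR).

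Pelvic and adrenal tumors of the same 3 mice were first compared by fits that left out the pairing by mouse. In these, 0 of the 26 genes passed by edgeR or by DESeq2, and the lowest unadjusted p by edgeR was 0.083, of Fdps. Of all 17901 genes edgeR called 0 (0%), 948 had an unadjusted p under 0.05, and DESeq2 called 233. The fold changes of 23 of the 26 genes were above 0, with a median of 0.38, which was 0.08 without the pelvic tumor of mouse 23. By mouse, pelvic exceeded adrenal in 23 genes in mouse 23, in 25 in mouse 36 and in 3 in mouse 84, where 46.2%, 51% and 49.7% of all genes did so. The medians of the list in these mice were 0.70, 0.37 and -0.18, so the direction was not shared by mouse 84. With the mouse as a block the median was 0.35, and 0 of the 26 genes and 15 of all genes passed.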

How the data were processed

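RNA-Seq of 19 mouse neuroblastomas was analysed from the deposited tables. Per the labels and the study's methods, the authors estimated transcript abundance with kallisto 0.44.0 on a combined mouse and human transcriptome (GRCm38 for mouse) and summed it to genes. The deposited expected counts per gene were whole numbers and were used as given. Log2 values of the authors' variance-stabilized table (18939 genes, made with DESeq2 1.32.0) served as an alternative. The library kit keeps strand, but the kallisto settings that the study lists include none for strand. Besides Lss and Srebf1, members shared exon bases with genes on the other strand. These were 985 bases in Scap, 774 in Fdft1 (with Ctsb), 557 in Hmgcs1 and 440 in Lbr (with Dnah14). Idi1 shared 323, Ggps1 257 (with Arid4b) and Cyp51 166 (with Akap9). The counts of these genes are therefore also uncertain.

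Tumors were grouped by the genotype and age in the labels; ages of FGFR1;MYCN mice come from the study's sample table. Counts were fitted with edgeR 4.0.16 (TMM factors, quasi-likelihood test) under R 4.3.3, with Benjamini-Hochberg adjusted p over all genes tested and a threshold of 0.05. Genes needed 10 counts in at least 8 tumors for the genotype contrast, 4 for the contrasts by age and 3 for pelvic against adrenal. CPM uses TMM-scaled library sizes, and fold changes are on the log2 scale. Alternatives were DESeq2 1.42.0, limma 3.58.1, other scaling factors and filters, tumors summed per mouse and each tumor left out; leaving out tumors with most liver or adrenal cortex RNA, and mouse2149 for the pathway and cell type lists, was chosen after seeing the data. All tumors are from separate mice except the pairs of 3 mice, which the main fits treat as separate. Same-mouse tumors deviated together (correlations of deviations 0.25, 0.20 and 0.32), so the mouse pairs them. The most alike libraries differed by more than counting noise (chi-square per gene 16.2). Gene positions are from GENCODE, motifs from RefSeq promoters. Scripts were tested on simulated data.

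The members and lists were chosen with earlier results of these data known. All 26 members are named, with the 5 outside genes closest to their mean and up to 4 genes per pathway list with the widest change by genotype or age; Mki67, Th, Dbh, Nr5a1, Ccnb1, Erlin2, Elovl6, Acsl3, Fasn, Acaca, Aacs and Acss2 were named after their values were seen. Some other genes of these pathways and lists are not reported here. Totals were 40010738 to 75882643 counts per tumor. The SE of an edgeR fold change was its size divided by the square root of the quasi-likelihood F statistic. The spread behind it is that between tumors, moderated over all genes, and in the main fits same-mouse tumors count as separate. No technical replicates were analysed here.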

Additional observations from a re-analysis of the deposited data

Results flagged for a closer look

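Within the groups of 4 FGFR1 tumors and of 11 FGFR1;MYCN tumors, only groups of 4 to 10 are examined for a sample far from the others, so 52 groups (26 genes at 2 ages) were examined and 5 stood out; chance alone flags about 1 in 20 groups. Srebf1 was at 188 CPM in T2, far above the other 6- to 7-day tumors. Among the 14-day tumors, Ggps1 was high in T21 at 75.2 CPM, Tm7sf2 low in T19 at 36.03 CPM, Lbr high in T19 at 49.8 CPM and Insig2 high in T15 at 86.3 CPM. T2 and T15 were the tumors with most liver RNA at their ages and T19 was among those with most adrenal cortex RNA; the part of these tissues was not tested.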

How the results depend on the processing

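In the genotype contrast no member past the threshold changed direction under any alternative run; Tm7sf2 and Scap, which had not passed, changed sign under 1 alternative each (-0.0019 and 0.03). The members higher numbered 16 to 19 under 11 alternatives and 16 to 18 when 1 tumor was left out, and the median was 0.81 to 1.11 and 0.80 to 1.04. The members lower fell from 2 to 1 (Lbr lost) under DESeq2, RLE factors, no filter on low counts, limma on variance-stabilized values, and without the tumors with most liver or adrenal cortex RNA (1 each), and ran from 1 to 2 when 1 tumor was left out; the cause was not tested. Over all genes, counted in 7 of the alternatives, 3116 to 4642 were higher and 3856 to 5255 lower.

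Against 14 days, 15 to 19 members were higher under 6 alternatives and 16 to 20 with 1 tumor left out. Against 6 to 7 days these were 10 to 16 and 6 to 13. All genes were not counted in these alternatives by age. Between ages the median was -0.68 to -0.42 with 1 tumor left out and -0.21 without the 3 tumors with most liver RNA, where 2 genes, not 0, had all 14-day above all 6- to 7-day tumors; 10 to 14 genes had the reverse with 1 tumor left out. DESeq2 called 1363 genes between ages where edgeR called 0. With the mouse as replicate block the pelvic median was 0.35, with 0 members called; leaving out 1 tumor it was 0.08 to 0.55. The median r was 0.65 by Spearman and 0.85 without mouse2149. In the 250 bases before the start, a CCAAT box was in 37.5% of all genes and in 90.9% of the members. All 26 members passed every filter on low counts; each age rests on 4 tumors.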
